A study of Mus musculus with 13 samples.

Results

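TRAJ12 is one of the joining (J) segments of the mouse T cell receptor α locus, and its germline end encodes the residues GGYKVVF that close the CDR3, the loop of the receptor that contacts peptide and MHC. TRAJ12 was selected on measured values of these same libraries: the CDR3s with the highest shares common to all samples end in GGYKVVF. The 2 most abundant of these CDR3s are mostly joined to TRAV4, which was part of the selection. The abundance and sharing of those CDR3s and their TRAV4 pairing are therefore given as a description, with no test. Members were all functional clonotypes (CDR3 without a stop codon or frameshift) assigned to TRAJ12, 3149 of 78521 functional clonotype rows over 13 samples, or 4.01%.

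Regulatory T (Treg) cells came from male mice that carried the Foxp3LSL allele, in which expression of Foxp3 awaits Cre, together with Cd4creERT2, and all of them were given 4-OHT on postnatal day 14. The Cre was driven from Cd4, so the allele was opened in cells that expressed Cd4 at that time, and the sorted GFP+ cells were the cells with restored Foxp3. Cells were taken 1.5 months (n = 2, age 8 weeks), 3 months (n = 4, age 3.5 months), 5 months (n = 2, age 5.5 months) and 7 months (n = 5, age 7.5 months) after treatment, and no untreated or wild-type group is part of these comparisons. Time after treatment and age cannot be told apart. The tables hold α chains only, so the sorted cells could not be checked against other Treg markers. The labels do not say that samples of a group came from separate animals, so p-values measure the spread between these samples, which may be technical.

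An α chain is made in the thymus by joining a V segment to a J segment. The ends are trimmed by nucleases, non-templated bases may be inserted between them, and an α locus can be rearranged again with V segments farther upstream and J segments farther downstream. Junctions that need few inserted bases can be made repeatedly in different cells and animals, and such CDR3s are often shared between individuals.

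The 13 libraries held 477052 to 882170 functional counts and 4828 to 7998 functional clonotypes each. TRAJ12 had 201 to 332 clonotypes and 19916 to 43201 counts per sample. In the main comparisons no clonotype row was left out for a low count. For scale, 3 counts lay between 3.40e-04% and 6.29e-04% of functional counts. Intervals on shares are 95% Wilson intervals that treat every count as independent. Counts of amplified cDNA need not be independent molecules, and the study sorted fewer cells per sample than the functional counts of any library. The intervals can therefore be too narrow, and they leave out the sampling of cells.

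In the GRCm38 annotation TRAJ12 lies on chromosome 14 at chr14:54206553-54206610, plus strand. It was 37th of the 44 J genes with a position when counted from the V side, with 7 farther downstream. Its sequence is shown first, with the 27 bases that fall in the CDR3 in capitals, followed by the 3′ end of TRAV4N-4, the TRAV4 gene of the largest clones.
TRAJ12 germline: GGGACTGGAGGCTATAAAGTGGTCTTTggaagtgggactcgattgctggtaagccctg
TRAV4N-4 germline end: tgtgctgctgagg

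The junctions below are nucleotide forms behind the most widely shared TRAJ12 CDR3s, shown because they differ in few bases at the joint. Each CDR3 is named by the residues that precede the common end TGGYKVVF, so that the CAAG CDR3 is CAAG followed by those residues. Capitals mark the 3′ run that equals germline TRAJ12, and lower case all bases before it, which are V and inserted bases and can include a mismatched base assigned to J.
CAAG, form a: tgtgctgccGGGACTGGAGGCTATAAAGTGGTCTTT
CAAG, form b: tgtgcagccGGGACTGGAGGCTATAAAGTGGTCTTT
CAAG, form c: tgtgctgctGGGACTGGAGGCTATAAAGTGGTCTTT
CAAG, form d: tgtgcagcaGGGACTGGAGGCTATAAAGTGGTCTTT
CAAG, form e: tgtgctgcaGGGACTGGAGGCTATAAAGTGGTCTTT
CAAE: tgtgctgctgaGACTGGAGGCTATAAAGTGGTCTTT
CAASR: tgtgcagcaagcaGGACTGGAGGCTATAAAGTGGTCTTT
CAAEAG: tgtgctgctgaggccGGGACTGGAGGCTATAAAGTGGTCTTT
CAAR: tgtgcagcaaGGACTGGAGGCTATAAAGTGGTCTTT
CAASAG: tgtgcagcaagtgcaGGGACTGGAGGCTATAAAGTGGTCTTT

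Forms c and d of the CAAG CDR3 kept the whole germline J part and had no inserted base. Form c was joined to TRAV4 and form d to TRAV14 or TRAV7. Form a, with a median of 1 inserted base, was found in 12 samples, form b in 11, forms c and d in 10 each, and form e in 4. The CAAE form lacked 2 germline J bases, had no inserted base and was found in 12 samples with TRAV4. The CAASR and CAAR forms, each lacking 1 J base and without insertion, were present in all 13 samples.

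TRAJ12 was a frequent J gene throughout and was more prominent by counts than by number of clonotypes. It held 4.02% ± 0.265 (SD, n = 13) of functional clonotypes, 6th among the J genes, and 5.09% ± 0.693 of functional counts, 2nd after TRAJ31 at 5.67% ± 0.708. TRAJ13, the neighbour on the V side, had a clonotype share of 4.20% ± 0.431 and a count share of 2.61% ± 0.492. TRAJ11, the neighbour downstream, had 1.05% ± 0.136 of clonotypes and 1.01% ± 0.177 of counts. By clonotype share the nearest J genes in the order were TRAJ13 above and TRAJ22 below, at 4.01% ± 0.294, both within 1 SD of TRAJ12. The order by clonotypes was set in part by rows that differ from the germline J end by T-to-G changes only, 46.2% of TRAJ13 rows and 7.11% of TRAJ12 rows. Without them, an alternative chosen after seeing the data, TRAJ13 fell to 2.46% ± 0.247 of clonotypes and 2.24% ± 0.422 of counts and TRAJ12 stood at 4.06% ± 0.253 and 5.13% ± 0.701, 5th by clonotypes and 2nd by counts, with TRAJ22 at 4.19% ± 0.300 above and TRAJ37 at 3.93% ± 0.282 below.

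The samples differ in the time after treatment. At 1.5 months the TRAJ12 share of functional clonotypes was 4.15% and 4.16%. At 3 months it was 4.16%, 3.77%, 4.00% and 3.62%, at 5 months 4.44% and 4.35%, and at 7 months 4.22%, 3.73%, 3.63%, 3.99% and 4.00%. The 5-month pair lay above every other sample, and the 3-month and 7-month ranges overlapped each other and the 1.5-month values. The differences from 1.5 months were -0.265 percentage points at 3 months, 0.239 at 5 months and -0.240 at 7 months. The SD within groups was 0.212. Each difference kept its sign with single libraries left out, and the 3-month difference ran from -0.357 to -0.176. None passed the exact permutation test over all 540540 arrangements (p = 0.363, 0.534 and 0.406, each corrected for the 3 comparisons and adjusted p = 1 over 12 comparisons).

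By counts, the share at 1.5 months was 4.94% (95% interval 4.89 to 5.00) and 4.87% (4.82 to 4.93). It was 5.79%, 4.61%, 4.78% and 5.30% at 3 months, 6.31% and 4.65% at 5 months, and 4.03%, 5.62%, 4.14%, 5.18% and 6.00% at 7 months. Samples of 1 time point differed, from 4.03% to 6.00% at 7 months, and all later groups spanned the 1.5-month values. The differences from 1.5 months were 0.211 percentage points at 3 months, 0.572 at 5 months and 0.0851 at 7 months, where the SD within groups was 0.770 (exact permutation p = 0.973, 0.776 and 0.998, adjusted p = 1). The sign of each difference rested on single libraries. At 3 months it became -0.0124 without replicate 1, at 5 months -0.256 without replicate 1 and 1.40 without replicate 2, and at 7 months -0.0728 without replicate 2 and -0.166 without replicate 5.

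In the edgeR quasi-likelihood fit of clonotype numbers over 43 J genes, the log2 fold change of TRAJ12 was -0.08 (SE 0.09) at 7 versus 1.5 months with adjusted p = 0.978. It was 0.09 (SE 0.10) at 5 versus 1.5 months with adjusted p = 0.928, and -0.07 (SE 0.09) at 3 versus 1.5 months with adjusted p = 0.957. Between 7 and 3 months it was -0.01 (SE 0.07) with adjusted p = 0.961. In each of these 4 comparisons 0 J genes were called, which is 0% of those tested. At an unadjusted p under 0.05, edgeR gave 0 J genes in each comparison with 1.5 months and 2 at 7 versus 3 months, and DESeq2 also called 0 after adjustment and gave 1 at 7 versus 3 months.

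**Figure D1:**
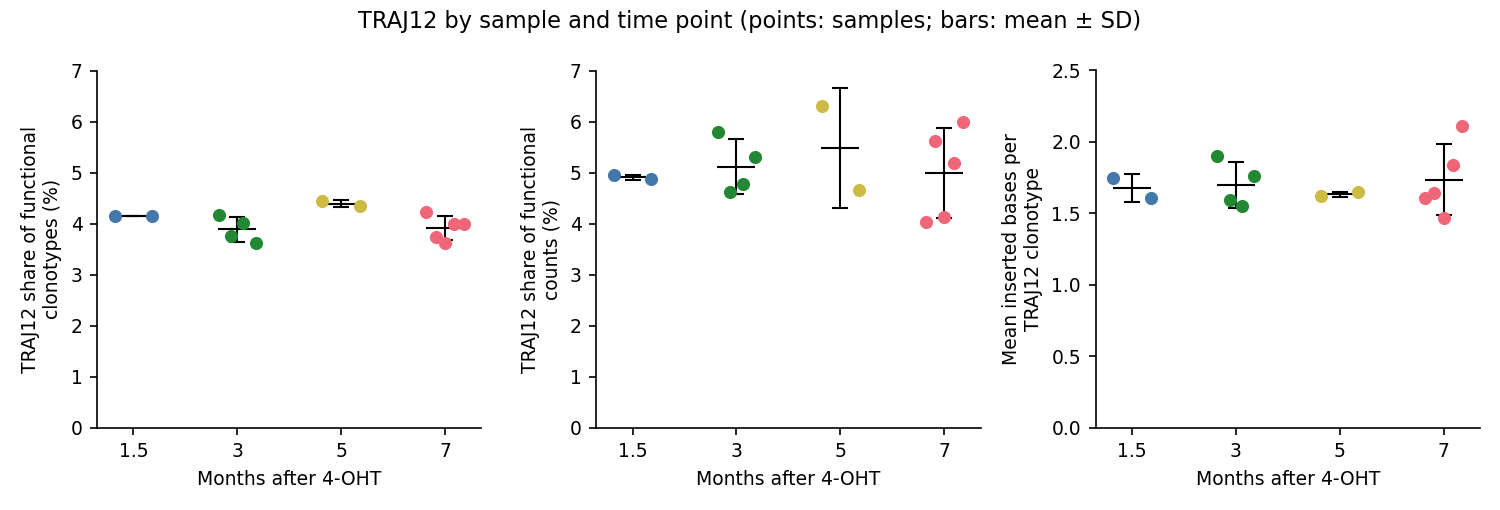
TRAJ12 share of functional clonotypes (left, %), share of functional counts (middle, %) and mean number of inserted bases per TRAJ12 clonotype (right) against months after 4-OHT. Points are samples and bars the mean ± SD of each group; the clonotype shares stay between 3.62% and 4.44% while the count shares spread from 4.03% to 6.31%.

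Against months, over 13 samples, the clonotype share gave Pearson r = -0.138 (permutation p = 0.649) and Spearman rho = -0.161 (permutation p = 0.595). The count share gave r = 0.00508 (permutation p = 0.986) and rho = -0.00575 (permutation p = 0.988). The mean number of inserted bases gave r = 0.109 (permutation p = 0.734) and rho = 0.0921 (permutation p = 0.763). The share of clonotypes ending in GGYKVVF gave r = 0.0200 (permutation p = 0.947) and rho = -0.0302 (permutation p = 0.922). After leaving out both 1.5-month samples, the samples farthest from the median month, r was 0.00786, -0.0895, 0.0926 and 0.104 in that order. Adjusted over the 4 trends, p was 0.986 for each r and 0.988 for each rho.

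The mean number of inserted bases of TRAJ12 clonotypes was 1.75 and 1.61 at 1.5 months, 1.90, 1.60, 1.55 and 1.76 at 3 months, 1.62 and 1.65 at 5 months, and 1.61, 1.65, 1.47, 1.84 and 2.11 at 7 months. The highest and the lowest sample were both at 7 months, and the 1.5-month values lay inside the 3-month and 7-month ranges. Differences from 1.5 months were 0.0247, -0.0417 and 0.0576 bases at 3, 5 and 7 months (exact permutation p = 0.997, 0.992 and 0.966, adjusted p = 1). Their signs too changed without single libraries, to -0.0451 at 3 and -0.0122 at 7 months without 1.5 months replicate 2, 0.0281 at 5 months without 1.5 months replicate 1, -0.0420 at 3 months without 3 months replicate 1 and -0.0373 at 7 months without 7 months replicate 5.

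TRAJ12 junctions were closer to germline than those of the other J genes pooled. TRAJ12 clonotypes lacked a mean of 1.47 ± 0.191 germline J bases (SD, n = 13) against 3.08 ± 0.0624 in the other J genes, a difference of -1.62 ± 0.192 that was negative in all 13 samples (exact paired permutation p = 0.000244, the smallest this design can give, adjusted p = 0.000342). Of the 42 J genes tested in the same way 36 were called, 85.7%, so a call by itself was common. TRAJ12 had the 2nd lowest mean, after TRAJ7 at 1.34. Over the last 18 CDR3 bases 0% of the 1319 TRAJ7 rows equalled the germline end used, so the TRAJ7 mean is uncertain. The neighbours of TRAJ12 were close to it, with a mean of 1.47 ± 0.156 in TRAJ13 and 1.69 ± 0.301 in TRAJ11, as was TRAJ22 with 1.61 ± 0.173. The germline end of 1 J gene could not be set from the usual motif, and without that gene, an alternative chosen after seeing the data, the difference was -1.44. Nothing had been removed from the J in 46.5% ± 4.58 of TRAJ12 clonotypes and in 26.5% ± 0.898 of the others, and up to 6 bases were missing in 99.0% of TRAJ12 rows.

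Insertions were fewer as well. The mean was 1.70 ± 0.171 bases in TRAJ12 and 2.18 ± 0.0519 in the other J genes, a difference of -0.475 ± 0.179 with the same direction in all 13 samples (exact paired permutation p = 0.000244, adjusted p = 0.00128). With this test 24 of 42 J genes were called, 57.1%, and TRAJ12 was 5th from the lowest. Clonotypes without any inserted base made up 37.3% ± 3.17 of TRAJ12 and 30.7% ± 1.06 of the other J genes, higher in all 13 samples by 6.63 ± 3.81 percentage points (exact paired permutation p = 0.000244, adjusted p = 0.00103). Here 28 J genes were called, 66.7%. Weighted by counts this difference was 8.18 percentage points with adjusted p = 0.0991, so its call was lost.

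The CDR3s were shorter, at 13.2 ± 0.0896 residues against 13.5 ± 0.0218, a difference of -0.334 ± 0.0819 in all 13 samples (exact paired permutation p = 0.000244, adjusted p = 0.000302). For length 40 of the 42 J genes were called, 95.2%, and TRAJ12 was 9th from the shortest. The lengths ran from 8 to 17 residues, with 35.1% of rows at 13, 31.6% at 14 and 20.9% at 12.

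**Figure D2:**
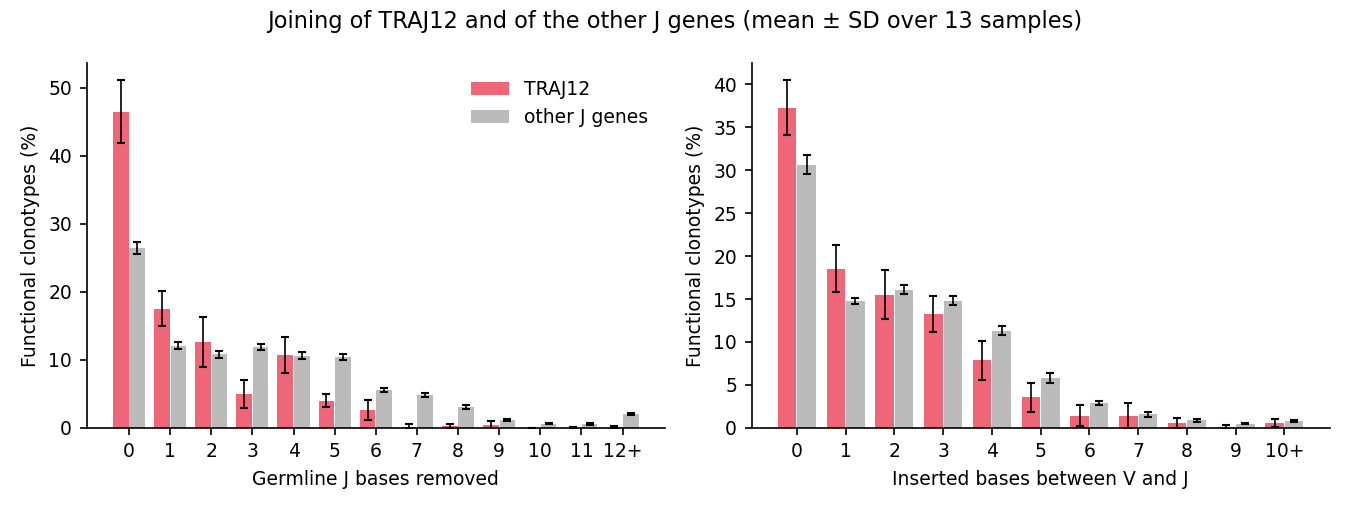
Share of functional clonotypes (%) by number of germline J bases removed (left) and by number of inserted bases between V and J (right), for TRAJ12 and the other J genes. Bars are means over 13 samples with the SD; untrimmed J ends reach 46.5% in TRAJ12 and 26.5% in the other J genes, and junctions without insertion 37.3% and 30.7%.

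Of the 3149 rows, 2815 (89.4%) ended in GGYKVVF, and 0 functional rows of any other J gene did. The full germline reading GTGGYKVVF stood in 1176 of these rows, TGGYKVVF preceded by another residue in 994, and another residue before GGYKVVF in 645. The share ending in GGYKVVF was 85.2% and 94.8% at 1.5 months, 87.5%, 84.7%, 92.2% and 92.5% at 3 months, 89.5% and 85.7% at 5 months, and 84.6%, 94.5%, 90.7%, 87.6% and 92.2% at 7 months. The 1.5-month pair spanned nearly the whole range, and the differences from it were -0.796, -2.40 and -0.110 percentage points at 3, 5 and 7 months (exact permutation p = 0.989, 0.847 and 1, adjusted p = 1). Their sign and size depended on single libraries, which also differed in rows with only T-to-G changes at the J end (values below). The differences were -5.58, -7.19 and -4.90 without 1.5 months replicate 1 and 3.99, 2.39 and 4.68 without 1.5 months replicate 2. Later libraries moved them less. The 3-month difference was 0.731 without 3 months replicate 2 and -1.90 without replicate 4. At 5 months it was -4.31 without replicate 1 and -0.488 without replicate 2. At 7 months it was 1.22 without replicate 1, 0.478 without replicate 4 and -1.26 without replicate 2.

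The 334 functional rows with another end were small, with a median of 2 counts against 75, and held 0.921% of TRAJ12 counts. In 211 of them only the last residue differed, and it was cysteine in 70, valine in 37, tryptophan in 36, glycine in 34 and leucine in 30. Over the last 18 CDR3 bases, 280 functional rows differed from germline at 1 or 2 positions, and in 224 of these (80.0%) every change was T to G. The rows with only T-to-G changes had a median of 2 counts and 0.346% of the counts. Such rows occurred with other J genes too, and TRAJ12 ranked 6th of 41 J genes with 7.11% of its rows, where the median of the others was 1.36% and TRAJ13 reached 46.2%.
Germline TRAJ12 end: ggctataaagtggtcttt
Most frequent other functional end, 72 rows: ggctataaagtggtctGt
Most frequent end with a stop codon, 52 rows: ggctaGaaagtggtcttG
Capitals in these ends mark bases that differ from germline. The last of them turns the tyrosine codon into a stop codon. In the per-sample data the T-to-G rows made up 2.49% to 11.6% of functional TRAJ12 rows. They were 10.2% in 1.5 months replicate 1 and 3.70% in replicate 2, where 85.2% and 94.8% of rows ended in GGYKVVF. The lowest value, in 3 months replicate 4, went with 92.5% and the highest, in 3 months replicate 2, with 84.7%. How far the spread of the GGYKVVF share follows these rows was not tested. Its time comparisons were not run without them.

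The non-functional rows, which a T cell can carry on its other α allele, give a reference for usage. TRAJ12 was assigned to 588 of 11848 of them. Its share was 4.02% ± 0.265 of functional and 5.00% ± 1.34 of non-functional clonotypes, a difference of -0.974 ± 1.33 percentage points, with the functional share higher in 3 of 13 samples (exact paired permutation p = 0.0220, adjusted p = 0.0355). The direction was not the same at every time point. At 1.5 months the non-functional share was 3.68% and 3.38%, below the functional share in both samples. It was 7.15%, 6.77%, 6.72% and 4.21% at 3 months and 4.50% and 5.57% at 5 months, above the functional share in each of these, and 6.10%, 4.77%, 3.79%, 3.46% and 4.62% at 7 months, above it in 4 of 5. The functional minus non-functional difference changed by -2.96 percentage points from 1.5 to 3 months (exact permutation p = 0.0132, adjusted p = 0.199 over 15 comparisons). The test over all samples called 26 of 42 J genes, 61.9%, with 20 higher and 6 lower among functional clonotypes. The result depended on which rows were counted. Among clonotypes of at least 10 counts the functional share was 4.17% ± 0.281 and the non-functional 3.65% ± 0.887, so the difference turned to 0.524 (adjusted p = 0.0937), with the functional share higher in 9 of 13 samples. Against frameshift clonotypes alone it was -0.369 (adjusted p = 0.363). Against in-frame stop clonotypes alone it was -15.4 (adjusted p = 0.00342), as TRAJ12 made up 89 of all 461 such rows, the highest number among 41 J genes, where the next was TRAJ26 with 37. With TRAJ32 left out of the totals, an alternative chosen after seeing the data, it was -1.84 (adjusted p = 0.00400).

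Of those 89 rows, 74 had a count of 1 and 68 had the stop in place of the tyrosine of GGYKVVF, 52 of them with leucine as the last residue, in all 13 samples. The call of the whole comparison was lost without any one of 7 libraries. The difference was -0.806 without 3 months replicate 1, -0.803 without 3 months replicate 2, -0.828 without 3 months replicate 3 and -0.949 without 5 months replicate 2. It was -0.899 without 7 months replicate 1, -0.969 without 7 months replicate 2 and -1.0 without 7 months replicate 5, with adjusted p between 0.0513 and 0.0710. Without the rows that differ from germline by T-to-G changes only, functional and non-functional alike and over all J genes, TRAJ12 held 4.07% ± 0.253 of functional and 3.64% ± 0.696 of non-functional clonotypes. The difference was then 0.428 (adjusted p = 0.0856), with the functional share higher in 9 of 13 samples, so its direction rested on these rows. This alternative was also chosen after seeing the data.

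TRAJ12 was joined to 91 V genes of 18 families. TRAV7 led with 19.1% ± 3.27 of TRAJ12 clonotypes, followed by TRAV4 with 13.5% ± 2.32, TRAV14 with 13.1% ± 2.64, TRAV12 with 10.0% ± 1.97, TRAV6 with 9.74% ± 0.999 and TRAV13 with 7.29% ± 2.26. TRAV4 was part of the selection and was not tested. Its share among the other J genes was 9.90% ± 0.651, lower in all 13 samples, and it was 24.9% ± 9.25 of TRAJ12 counts, from 11.2% to 41.7%. TRAJ12 was 5th among J genes by TRAV4 share of clonotypes, after TRAJ33, TRAJ47, TRAJ52 and TRAJ50. Of the 429 TRAV4 rows, 271 were assigned to TRAV4D-4 with 42959 counts and 44 to TRAV4N-4 with 42587 counts, and reads of these near-identical duplicated genes may have been split between them.

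Of the 14 other families with at least 1% of functional clonotypes, 4 passed the test, 28.6%. The same test gave between 0 and 11 calls per J gene with a median of 6. TRAV9 was higher with TRAJ12, at 7.26% ± 2.30 against 4.88% ± 0.736, by 2.38 ± 2.14 percentage points in all 13 samples (exact paired permutation p = 0.000244, adjusted p = 0.000854). TRAV5 was lower, at 1.78% ± 0.930 against 3.98% ± 0.433, by -2.20 ± 0.856 in all 13 samples (exact paired permutation p = 0.000244, adjusted p = 0.000854). Weighted by counts the TRAV9 difference was 1.38.

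TRAV17 and TRAV21 were nearly missing. Each was joined to TRAJ12 in 2 rows, all 4 of them in 3 months replicate 3, and their means of 0.0628% ± 0.226 stood against 1.05% ± 0.0911 and 1.16% ± 0.153 with the other J genes, lower in all 13 samples (exact paired permutation p = 0.000244, adjusted p = 0.000854, for each). Both lie close to the J cluster: TRAV17 at chr14:53806639-53807115 is the 7th and TRAV21-DV12 at chr14:53875984-53876752 the 3rd of 128 TRAV genes counted from the J side. TRAV11 was joined to TRAJ12 in 1 row, 0.0260% ± 0.0937 of clonotypes against 0.592% ± 0.131 in the others, and was too rare to be tested.

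The scarcity of TRAV17 and TRAV21 was shared by J genes around TRAJ12. Together they made up 25.8% of TRAJ58 clonotypes, the first of 42 J genes from the V side. The median was 8.73% over the first 10 J genes and 0.197% over the last 10. TRAJ12 had 4 of 3149 rows, 0.127% (95% interval 0.0494 to 0.326), TRAJ13 had 0.0608% and TRAJ11 0.364%. Across the 42 J genes the Spearman correlation of the share with the order in the locus was -0.904, which is a description over J genes that share the same libraries.

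**Figure D3:**
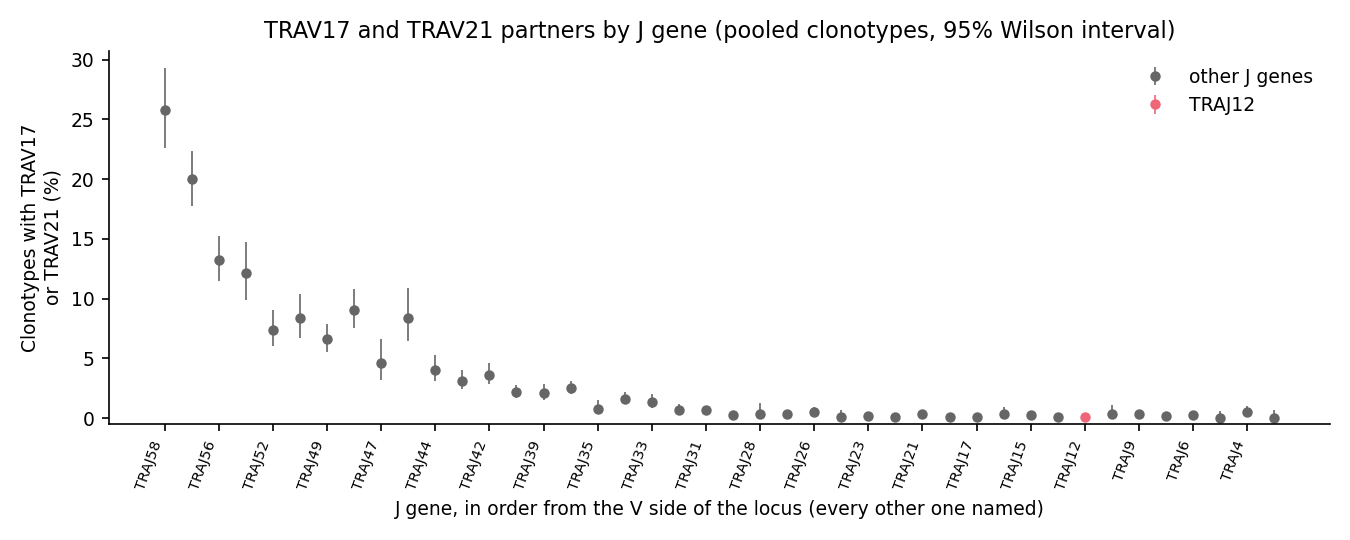
Share of functional clonotypes joined to TRAV17 or TRAV21 (%) for 42 J genes in their order from the V side, pooled over 13 samples, with 95% Wilson intervals. The share falls from 25.8% at TRAJ58 to below 0.5% around TRAJ12, which stands at 0.127%.

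**Figure D4:**
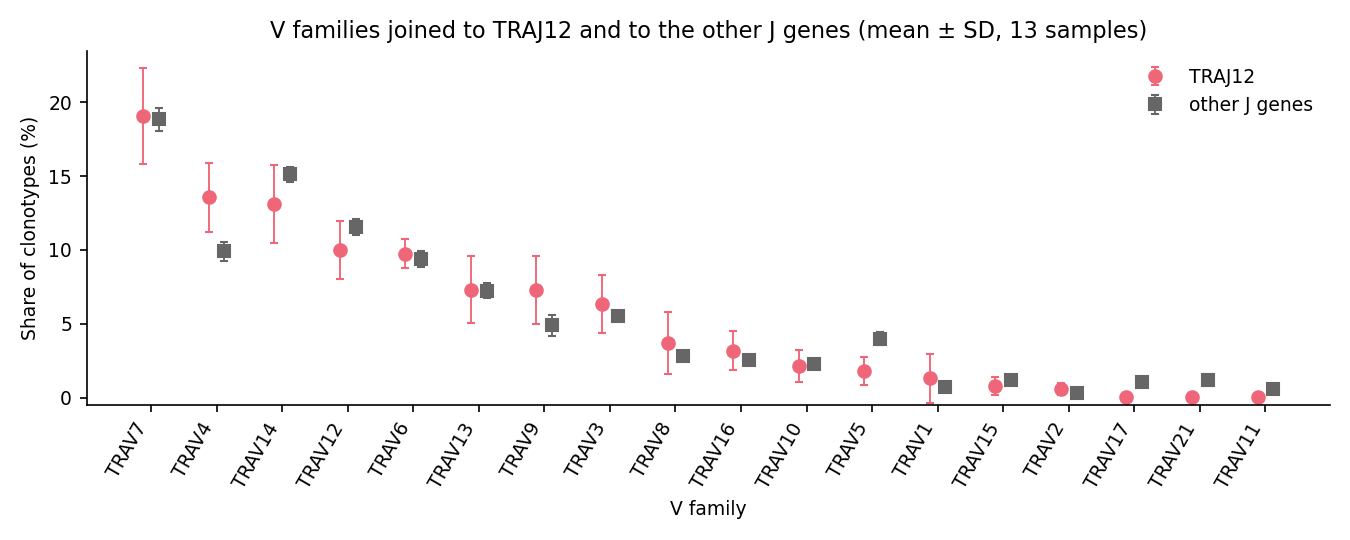
Share of clonotypes (%) by V family for TRAJ12 and for the other J genes, as mean ± SD over 13 samples. TRAV4 and TRAV9 stand above the other J genes, TRAV5 below, and TRAV17, TRAV21 and TRAV11 near 0.

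By V family profile the J genes most like TRAJ12 were TRAJ21, TRAJ22 and TRAJ16, with Bray-Curtis distances of 0.0659, 0.0785 and 0.0799 where the median over 41 J genes was 0.142. By clonotype share over the 13 samples they were TRAJ16 with a Spearman correlation of 0.599, then TRAJ22 and TRAJ7 with 0.352 each, in a range over 41 J genes from -0.434 to 0.599. These values share the same libraries and totals and carry no test.

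The members comprised 1443 CDR3 amino-acid sequences, and 999 of them (69.2%) were found in 1 sample, as were 71.2% of the 40059 of the other J genes. At the other end 9 were found in all 13 samples, against 56 of the other J genes. Those 9 ended in GGYKVVF, took 24.9% ± 9.16 of TRAJ12 counts (14.2% to 40.7%) and 1.31% ± 0.611 of all functional counts. Just outside were the CAVSR and CAVSG CDR3s, each in 12 samples, with mean shares of 0.0424% and 0.0214%.

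Their share of TRAJ12 counts was 15.2% and 14.2% at 1.5 months, 28.8%, 26.3%, 16.9% and 39.3% at 3 months, 31.9% and 23.2% at 5 months, and 16.4%, 23.8%, 15.8%, 31.9% and 40.7% at 7 months. Both 1.5-month values lay below every later one, and because these CDR3s were chosen for their abundance this is given without a test. The gap was small, 15.2% against 15.8% in 7 months replicate 3. The same share was not computed for shared CDR3s of the other J genes, so no background is given. Without the 9 CDR3s TRAJ12 held 3.78% ± 0.396 of functional counts and 3.63% ± 0.262 of functional clonotypes, and these values lay closer together than 5.09% and 4.02%.

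The CAAG CDR3 was the most abundant, with 12 nucleotide forms and 82.8% of its counts in TRAV4. It held 0.20% and 0.118% of functional counts at 1.5 months, 0.392%, 0.515%, 0.226% and 0.930% at 3 months, 0.12% and 0.176% at 5 months, and 0.121%, 0.434%, 0.0897%, 0.443% and 2.04% at 7 months. The highest and lowest samples, 22.7-fold apart, were both at 7 months. In 7 months replicate 5 form a alone made up 99.4% of its counts and 2.02% (95% interval 1.99 to 2.06) of the library, the largest TRAJ12 clone of that time point. The same form had at most 0.203% in the other 11 samples that held it. Without that library the mean share of the CDR3 fell from 0.446% ± 0.532 to 0.314% ± 0.245.

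The CAAE CDR3, with 99.6% of counts in TRAV4, followed at a mean of 0.239% ± 0.352. It held 0.0385% and 0.115% at 1.5 months, 0.195%, 0.151%, 0.230% and 0.522% at 3 months, 1.32% and 0.0431% at 5 months, and 0.0703%, 0.219%, 0.0328%, 0.153% and 0.0190% at 7 months. The 5-month pair held the highest value of all and one below every 3-month sample, and the whole range was 69.7-fold. In 5 months replicate 1 a single nucleotide form with 7200 counts was all of it, 1.32% (95% interval 1.29 to 1.35) and 21% of TRAJ12 counts. Without that library the mean was 0.149% ± 0.139.

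The CAASR CDR3, 96.2% in TRAV7, ranged 188-fold. It held 0.219% and 0.0604% at 1.5 months, 0.885%, 0.0608%, 0.136% and 0.0647% at 3 months, 0.166% and 0.0494% at 5 months, and 0.0475%, 0.223%, 0.0987%, 0.430% and 0.00470% at 7 months. The highest sample, 3 months replicate 1, stood apart from the other 3 of its group, and the lowest, 7 months replicate 5, rested on 25 counts. In that highest sample 67.1% of the counts lay in 1 of its 3 nucleotide forms.

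The other 6 reached at most 0.454%. The CAASG CDR3 ranged from 0.0286% to 0.263%, and CAAEAG from 0.0110% in 1.5 months replicate 1 to 0.454% in 5 months replicate 2, all of it in TRAV4. CAAR ranged from 0.00857% to 0.147% and CAASAG from 0.00793% to 0.114%. CAASGG lay between 0.00800% and 0.137%, and CAVR between 0.00228% and 0.111%. CAAR had the most nucleotide forms, 15 over 6 V families, and its leading family, TRAV4, held 40.6% of its counts.

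In 4 of the 9 shared CDR3s some pair of time points did not overlap. Every 3-month value of CAAG (lowest 0.226%) lay above both 1.5-month and both 5-month values, and every 3-month value of CAAE (lowest 0.151%) above both 1.5-month values. Every 7-month value of CAAEAG (lowest 0.0607%) lay above both 1.5-month values (highest 0.0389%). For CAASAG the direction was the opposite, with the 1.5-month pair (lowest 0.0666%) and the 5-month pair (lowest 0.0686%) above all 3-month values (highest 0.0563%). Time points overlapped throughout in the other 5. Over all J genes, 30 of the 65 CDR3s found in every sample had such a pair, 46.2%, so the TRAJ12 count was close to that background.

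**Figure D5:**
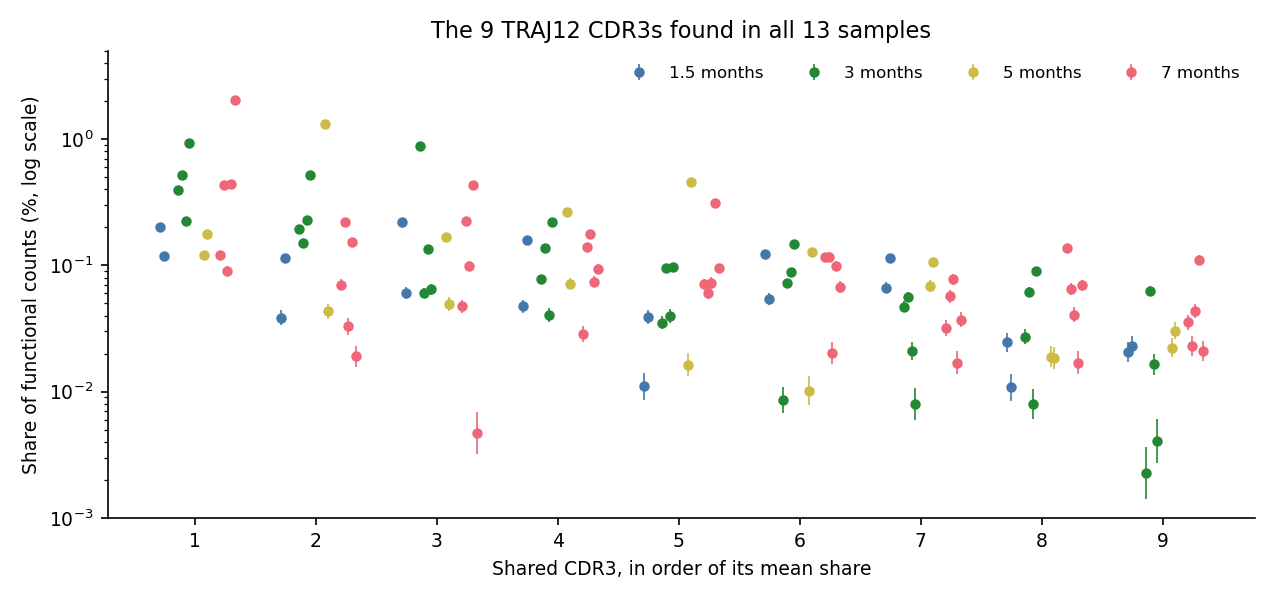
Share of functional counts (%, log scale) of the 9 TRAJ12 CDR3s found in all samples, numbered by mean share: 1 is CAAG, 2 is CAAE, 3 is CAASR, 4 is CAASG, 5 is CAAEAG, 6 is CAAR, 7 is CAASAG, 8 is CAASGG and 9 is CAVR. Points are samples with 95% Wilson intervals, coloured by time point; the first 3 span 22.7-fold, 69.7-fold and 188-fold.

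Widely shared TRAJ12 clonotypes had simple junctions. Counted by nucleotide sequence and V family, the 1844 found in 1 sample had a mean of 2.14 inserted and 1.76 removed J bases. The 408 found in 2 to 4 samples had 1.40 and 1.2, the 35 found in 5 to 9 samples 0.527 and 0.971, and the 11 found in 10 to 13 samples 0.182 and 0.455. Both measures thus fell at each step, as they did in the other J genes, where inserted bases went from 2.57 to 1.66, 0.468 and 0.0930 and removed J bases from 3.29 to 2.85, 2.11 and 1.21. The 11 most shared made up 17.5% of TRAJ12 counts, and the 43 of the other J genes with that spread 1.78% of theirs. This contrast is a description only. TRAJ12 was selected for its abundant shared CDR3s, and the other J genes are pooled.

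The number of nucleotide forms per amino-acid CDR3 moved the other way. It was 1.07 for CDR3s in 1 sample, 1.88 for those in 2 to 4, 4.05 for 5 to 9, 6.67 for 10 to 12 and 9.44 for the 9 in all 13 samples. More samples give more chances to count a form, so these means are not independent of the sharing itself.

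Clone sizes were wide. Of the 3149 rows 743 had fewer than 10 counts and 37 more than 1000. The median count per TRAJ12 clonotype was above that of the other J genes in 11 of 13 samples and equal in 1, with sample medians from 47 to 109 against 36 to 99. This is a description, since abundance was part of the selection. Rows with only T-to-G changes, which were small in TRAJ12, made up 7.11% of its rows. Their share was 46.2% in TRAJ13, 37.8% in TRAJ15 and 37.3% in TRAJ21, with a median of 1.36% over the other J genes. The median counts were not computed without such rows. The largest clone took 2.93% to 33.7% of TRAJ12 counts and the 10 largest 20.9% to 53.7%. Without the largest clone of each sample the TRAJ12 count share was 4.55% ± 0.509.

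By share of functional counts, the largest TRAJ12 clone at 1.5 months was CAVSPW with TRAV7-3 in replicate 1, at 0.166% (95% interval 0.156 to 0.178). It had 922 counts, and 1 other sample held a single count of it. At 3 months the largest by share was form e of CAAG in replicate 4, at 0.622% (0.602 to 0.642) or 3529 counts. The 3 other samples with this form held at most 0.0341%. A CAASR form in 3 months replicate 1 had a lower share, 0.594%, but more counts. The largest of 1.5 months was thus private apart from the single count in 1 other sample. The largest by share at 3, 5 and 7 months were forms of the CAAG and CAAE CDR3s.
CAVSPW, largest at 1.5 months: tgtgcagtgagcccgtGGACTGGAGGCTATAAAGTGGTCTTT

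Between pairs of samples, the overlap of TRAJ12 nucleotide clonotypes (shared over all in either) had a median of 5.16% over 78 pairs. The highest was 8.73%, between 1.5 months replicate 1 and 3 months replicate 4, or 13.9% of the clonotypes of the first and 19.1% of the second. Rows whose clonotype had 100 times the share of functional counts or more in some other library numbered 104, 3.30% of TRAJ12 rows and 0.0975% of its counts.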

How the data were processed

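TCRα transcripts of sorted GFP+ Treg cells were measured in 13 samples. The authors amplified the α chains by 5′ RACE (a switch oligo with random bases marked the cDNA ends) and sequenced them on a MiSeq. They assembled clonotypes with MiXCR and corrected and tabulated them with VDJtools. Their pre-processing also removed clonotypes with a stop codon or frameshift. The deposited tables still hold 11848 such rows, which are the non-functional rows used here. The deposited tables give a raw count per clonotype, whose nature as reads or molecules is not stated, and the authors' fraction of each sample, which was used in no test. The correction drops small clonotypes near a large one in sequence, so numbers of rare variants depend on it. The last V and first J positions in the CDR3 were also used: inserted bases are those between them, set to 0 where they overlap, and removed J bases are the germline CDR3 part minus the part assigned to J, set to 0 where that was longer, as in 584 TRAJ12 rows. The J part can include mismatched bases, so removed bases can be undercounted. Germline segments came from GENCODE vM21 (GRCm38).

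Members, gene groups and lists were chosen with earlier results of these data known. Named were the TRAJ12 CDR3s found in all 13 samples, the largest clonotype of each time point by share, and the 6 leading V families. Also named were the V families passing the test, the 3 J genes closest by each measure, and the neighbours TRAJ11 and TRAJ13.

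Time points were compared with 1.5 months by two-sided exact permutation tests with the maximum over 3 comparisons, in place of the study's analysis of variance because groups were small, and trends with 100000 permutations. TRAJ12 was compared with the other J genes within samples by two-sided exact paired permutation, run for each of 42 J genes with at least 20 clonotypes in every sample. J usage was fitted with edgeR 4.0.16 (filterByExpr, TMM, quasi-likelihood F test) in R 4.3.3, with DESeq2 1.42.0 as an alternative. All p-values were adjusted by Benjamini-Hochberg over the comparisons of a family. Other steps used scipy 1.17.1, numpy 2.4.6 and pandas 2.3.3 under Python 3.11.15, and the tests were tested on simulated data. Alternatives were equal depth (477052 counts), at least 2 or 10 counts, amino-acid clonotypes, a log2 scale, removal of likely copies between libraries, weighting by counts, leaving out each sample and, chosen after seeing the data, leaving out TRAJ32 or rows with only T-to-G changes at the J end.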

Additional observations from a re-analysis of the deposited data

Results flagged for a closer look

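Within the 3-month and 7-month groups, 36 sets of values (18 measures in each group) were examined for a sample far from the rest of its group, and 5 were found. Chance gives about 1 in 20 such sets for normally distributed values that were not selected. That rate does not apply to the 4 CDR3 shares, since these CDR3s were selected knowing that their shares vary between samples, and they are given as a description. The CAAG CDR3 held 2.04% of functional counts in 7 months replicate 5, where the next of its group held 0.443%. The CAASR CDR3 held 0.885% in 3 months replicate 1, next to 0.136%. The CAAEAG CDR3 held 0.311% in 7 months replicate 4, next to 0.0944%, and the CAVR CDR3 held 0.111% in the same library, next to 0.0434%. The TRAJ12 share of non-functional clonotypes was 4.21% in 3 months replicate 4, where the next of its group was 6.72%. The causes were not tested. For the paired comparisons of TRAJ12 with the other J genes and of functional with non-functional clonotypes, 15 differences between a later time point and 1.5 months were tested by exact permutation, and the smallest adjusted p was 0.199.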

How the results depend on the processing

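The paired differences of TRAJ12 from the other J genes in inserted bases, removed J bases and CDR3 length kept their direction and call under every alternative run. The share without inserted bases kept its direction and lost its call only when weighted by counts (8.18 percentage points, adjusted p = 0.0991). The functional minus non-functional difference, -0.974, was 0.524 at 10 counts or more, 0.428 without rows that differ from germline by T-to-G changes only, -0.369 against frameshift clonotypes alone, -1.84 (adjusted p = 0.00400) with TRAJ32 left out of the totals, and -1.12 to -0.803 with single samples left out, where 7 of the 13 fits lost the call. The T-to-G and TRAJ32 alternatives were chosen after seeing the data, and the causes of the changes were not tested.

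None of the time comparisons of TRAJ12 passed its test under any alternative, and several changed sign. For the share ending in GGYKVVF the 3 versus 1.5 months difference was 0.165 at equal depth, 0.172 and 0.102 at 2 and 10 counts or more and 0.533 for amino-acid clonotypes. At 7 versus 1.5 months it was 0.419 and 0.866 at 2 and 10 counts or more, 0.866 for amino-acid clonotypes and 0.0247 with copies removed. Inserted bases at 3 versus 1.5 months differed by -0.0131 and -0.0383 at 2 and 10 counts or more, and at 10 counts by 0.00144 at 5 and -0.0102 at 7 versus 1.5 months. The edgeR log2 fold change at 7 versus 3 months was 0.0043 with DESeq2, 0.0050 without TMM and 0.0249 at 10 counts or more, and on summed counts it was 0.0499 at 7 and 0.0582 at 3 versus 1.5 months.

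With single samples left out, the log2 fold change at 7 versus 3 months ran from -0.0528 to 0.0273. The clonotype share differences ran from -0.357 to -0.176 at 3, 0.196 to 0.282 at 5 and -0.318 to -0.169 at 7 months. The count share differences ran from -0.0124 to 0.379 at 3, -0.256 to 1.40 at 5 and -0.166 to 0.327 at 7 months. The GGYKVVF differences ran from -5.58 to 3.99, -7.19 to 2.39 and -4.90 to 4.68, with both extremes from leaving out one or the other 1.5-month sample. Inserted bases ran from -0.0451 to 0.0945, -0.111 to 0.0281 and -0.0373 to 0.127. The trends ran from r = -0.271 to 0.00640 for clonotype share, -0.140 to 0.185 for count share, -0.142 to 0.253 for GGYKVVF and -0.195 to 0.277 for inserted bases.

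Replicate numbers are shared between groups, but deviations of same-numbered samples over 42 J genes correlated at a mean of 0.112 (-0.366 to 0.265, 14 pairs) and 4 of 13 samples correlated best with their own number, so the numbers were not taken as pairs. With the replicate block the 7 versus 1.5 months differences were -0.0839 for count share and -0.0206 for inserted bases, and r was -0.118 for count share, -0.143 for GGYKVVF and -0.297 for inserted bases, with no call gained. With 2 samples at 1.5 and 5 months, an exact test of those groups alone could not go below p = 0.333.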
